A study of Mus musculus with 9 samples.

Results

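The nuclear receptors are a family of transcription factors that bind DNA through a zinc-finger domain, and many of them are switched on by small fat-soluble ligands such as hormones, vitamins, fatty acids and bile acids. The genes described here were 43 listed members of the family, of which 41 were measured by a probe set that carries a single gene symbol, out of 19938 genes measured in that way. Each of the 41 had only 1 such probe set. Nr1h2, which encodes LXRbeta, and Nr2e3, a receptor of photoreceptor cells, were not analysed here. The list is not the whole family, and receptors outside it are not described. Several, among them the PPAR, thyroid hormone and retinoic acid receptors, bind DNA as dimers with a retinoid X receptor (RXR), while the steroid receptors pair with themselves. In the adult liver they set lipid, bile acid and drug metabolism in hepatocytes, and retinoid receptors and PPARgamma have been studied in stellate cells, liver pericytes that store vitamin A.

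The RNA came from livers of C57BL/6 mice that carried a DsRed reporter on 1 of their 2 Cxcl12 alleles (Cxcl12DsRed/+) at all stages. Red cells without CD45 and Ter119, surface proteins of blood cells, were sorted from fetuses at E15.5, an embryonic stage, and from pups at P5 and P10, postnatal days 5 and 10, and each stage had 3 Affymetrix arrays. The series' design text calls the arrays of a stage independent replicates but names no animals or pools, so the p-values describe the spread among these arrays, which may be technical. The labels give no group without the reporter, no sex and no batch, so any batch that ran with stage cannot be told apart from it.

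Values are log2 signals, so a difference of 1 is a 2-fold change. A gene is said to have risen or fallen where the adjusted p of the limma fit to all 9 arrays was under 0.05, with adjustment over all 19938 genes. Errors of differences are standard errors of that fit. Signals of different probe sets are not on 1 scale, so levels are compared between stages and not between receptors. A probe set is called dim at a stage where it lay on average under percentile 30 of the genes on those arrays, which was a log2 signal of 5.64 to 5.74. Of the 41 receptors, 5 were dim at all stages (Pgr, Nr4a3, Rorb, Esrrb and Nr0b1) and 5 at E15.5 alone (Vdr, Rxrg, Nr3c2, Hnf4g and Nr0b2). A rise from a dim level may be understated, and no test against background was run.

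Pearson r between arrays, across genes, was 0.986 to 0.995 within a stage and 0.875 to 0.985 between stages. Markers of hepatocytes were bright on all arrays, with Alb at 13.03 to 13.22, although the sort was made for a stromal reporter. The log2 of the summed signal of 20 hepatocyte markers was 15.81 to 15.90 at E15.5, 16.54 to 16.64 at P5 and 16.46 to 16.63 at P10, and that of 20 stellate cell markers was 14.78 to 14.97, 13.08 to 13.45 and 12.69 to 13.07. At P10 against E15.5, 13 hepatocyte markers rose and 3 fell, while 0 stellate markers rose and 19 fell. Of all genes 20.1% rose and 18.6% fell in that comparison. None of the markers of these 2 lists was dim at all stages. Of 16 macrophage markers 9 were dim at all stages, Ptprc, the gene of CD45, and Adgre1 among them. The summed level of 9 erythroid markers was 10.46 to 11.36, 10.04 to 10.15 and 10.16 to 10.48 at the 3 stages, and that of 7 cholangiocyte markers 9.18 to 9.50, 10.32 to 10.61 and 9.54 to 9.59. For 13 mesothelial markers it was 13.21 to 13.25, 13.79 to 13.92 and 13.29 to 13.37. Such a sum leans on the members with the highest signal, here Krt18, Krt8 and Alcam. At P10 against E15.5, 2 mesothelial markers rose and 7 fell, beside 20.1% and 18.6% of all genes, with a median difference of -0.63. For 23 cell cycle genes the summed level was 14.50 to 14.65, 13.95 to 14.25 and 14.46 to 14.62. P5 arrays 2 and 3 stood apart in 18 sinusoidal endothelial markers, with a summed level of 12.59 and 12.70 against 11.34 on P5 array 1 and 11.35 to 11.80 at P10. In bulk RNA, fewer cells of a type and less RNA per cell cannot be told apart, and the part of these marker shifts in the receptor differences was not tested.

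**Figure D1:**
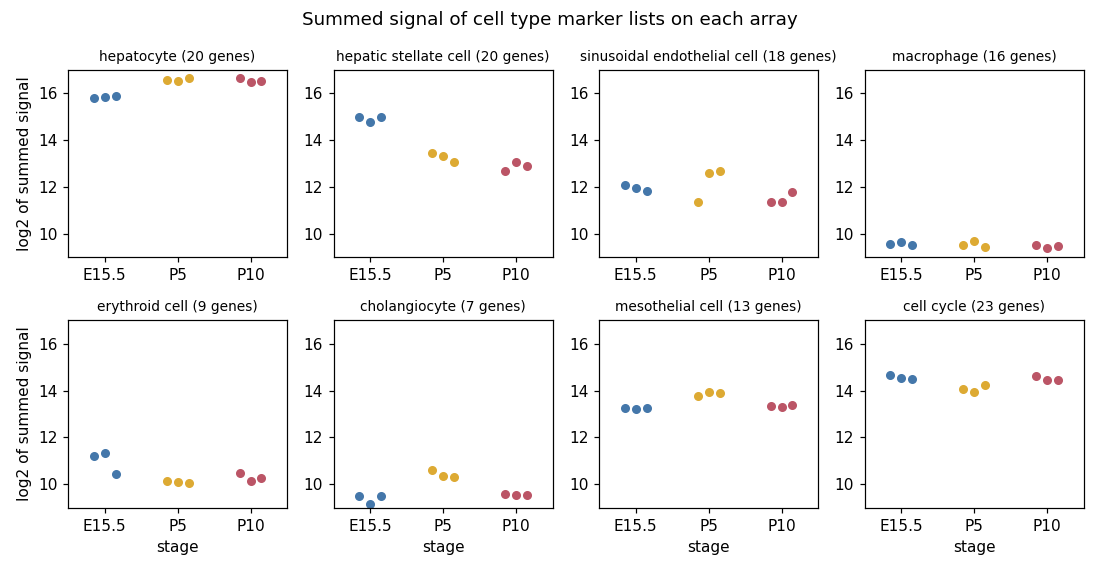
Log2 of the summed signal of marker lists (vertical axis) on each array (points) by stage (horizontal axis), for 8 lists of cell type or cell cycle genes. The hepatocyte list stood at 15.81 to 15.90 at E15.5 and at 16.46 to 16.64 after birth, the stellate list stood lower after birth, and P5 arrays 2 and 3 stood above P5 array 1 in the endothelial list.

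More receptors rose than fell after birth. At P5 against E15.5, 24 of 41 receptors passed, where 35.6% of all genes passed, and 15 of them differed at least 2-fold, where 14% of all genes did. At P10 against E15.5, 26 passed, where 38.7% of all genes passed, and 17 differed at least 2-fold, where 17.3% did. By direction, at P5 against E15.5, 16 of 41 receptors rose, where 17.9% of all genes rose, and 8 fell, where 17.7% of all genes fell. At P10, 17 rose, beside 20.1% of all genes, and 9 fell, beside 18.6%. The arrays of the stages did not overlap for 29 receptors at P5, beside 45.2% of all genes, and for 32 at P10, beside 51.7%. The median difference over the 41 receptors was 0.17 at P5 and 0.21 at P10, beside medians over all genes of 0.03 and 0.02. Both comparisons rest on the same E15.5 arrays. Between P10 and P5, 3 receptors passed, where 5.65% of all genes passed. All 3 rose, beside 2.76% of all genes, 0 fell, beside 2.89%, and 0 differed at least 2-fold, beside 1.21%. In the F test over the 3 stages 24 of 41 receptors passed, where 38.3% of all genes passed.

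**Figure D2:**
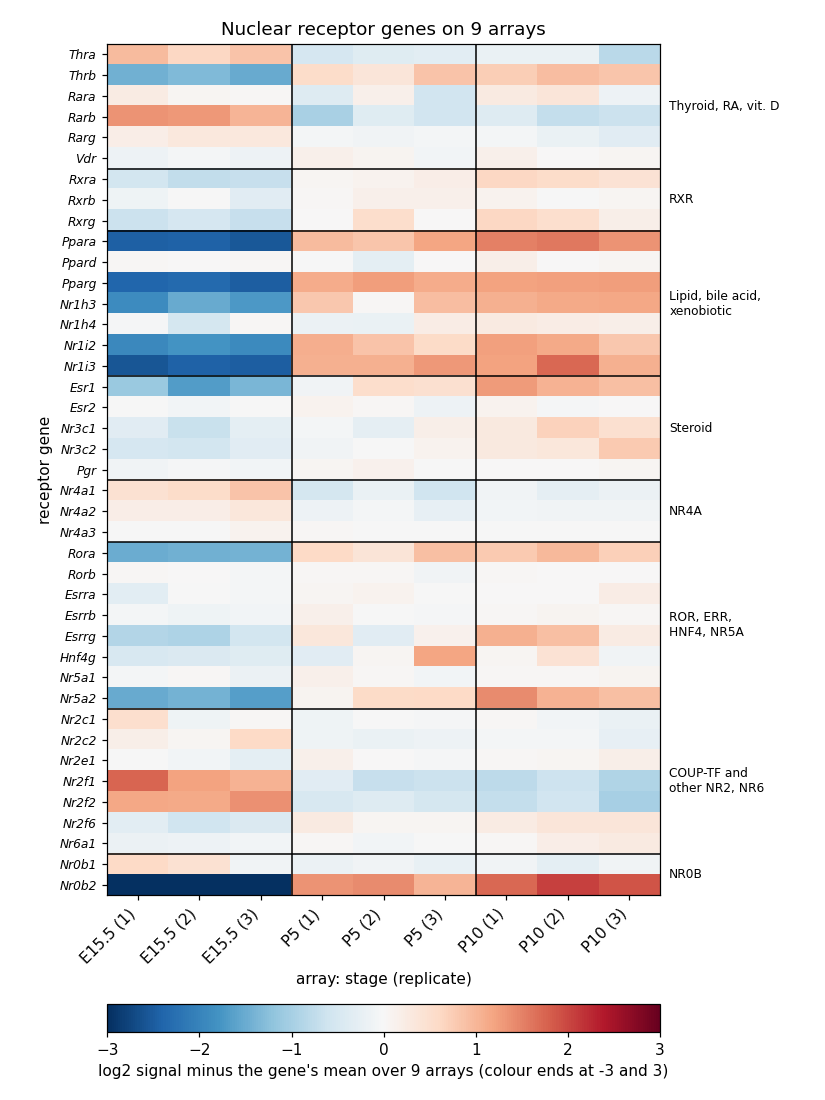
Log2 signal of each of 41 receptor genes (rows, by class) on each of 9 arrays (columns) as the difference from the gene's own mean, in colour. Lipid, bile acid and xenobiotic sensors are mostly blue at E15.5 and red after birth, Rarb, Nr2f1 and Nr2f2 run the other way, and Nr0b2 at E15.5 lies beyond the end of the colour scale.

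The class with the largest median difference in both comparisons with E15.5 was that of the lipid, bile acid and xenobiotic sensors. Of its 7 measured members 5 rose at P5 and the same count rose at P10, with medians of 2.71 and 2.94. The share of all genes that rose was 17.9% at P5 and 20.1% at P10. Ppara, the receptor that turns on fatty acid oxidation in fasting, had log2 signals of 7.23, 7.26 and 7.14 on the E15.5 arrays, 10.64, 10.50 and 10.87 on the P5 arrays and 11.18, 11.25 and 11.02 on the P10 arrays. The 3 stages did not overlap. Ppara rose by 3.46 ± 0.10 at P5 (11.02-fold, adjusted p = 1.21e-07) and by 3.94 ± 0.10 at P10 (15.4-fold, adjusted p = 4.19e-08).

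Pparg, the receptor of fat cell differentiation, which is also known from quiescent stellate cells, had signals of 6.40, 6.45 and 6.30 at E15.5, 9.89, 10.01 and 9.87 at P5 and 9.98, 9.996 and 10.04 at P10. Its postnatal arrays lay far above the fetal ones and overlapped with each other. It rose by 3.55 ± 0.063 at P5 (11.7-fold, adjusted p = 1.04e-08) and by 3.62 ± 0.063 at P10 (12.3-fold, adjusted p = 7.43e-09). The third member of this group, Ppard, which is expressed in many tissues, had stage means of 7.89 ± 0.0094, 7.76 ± 0.173 and 7.94 ± 0.0801 (SD, n = 3 each). It did not pass in any comparison (adjusted p = 0.321 at P5 and 0.705 at P10 against E15.5, and 0.352 between P10 and P5).

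Both xenobiotic receptors rose. Nr1i3 encodes CAR, a sensor of drugs and of bilirubin, and had signals of 6.56, 6.70 and 6.65 at E15.5, 10.19, 10.19 and 10.42 at P5 and 10.32, 10.83 and 10.19 at P10. The difference was 3.63 ± 0.16 at P5 (12.4-fold, adjusted p = 7.06e-07) and 3.81 ± 0.16 at P10 (14.04-fold, adjusted p = 3.63e-07), with no overlap of either postnatal stage with E15.5. Nr1i2 encodes PXR, which shares many target genes with CAR, and had 6.76, 6.91 and 6.78 at E15.5, 9.78, 9.54 and 9.26 at P5 and 9.92, 9.83 and 9.51 at P10. It rose by 2.71 ± 0.15 at P5 (6.56-fold, adjusted p = 2.61e-06) and by 2.94 ± 0.15 at P10 (7.66-fold, adjusted p = 1.11e-06).

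Nr1h3, which encodes the oxysterol receptor LXRalpha of hepatocytes and macrophages, had signals of 6.20, 6.57 and 6.37 at E15.5, 8.90, 8.13 and 9.03 at P5 and 9.17, 9.22 and 9.24 at P10. Array 2 was the low one at P5 and still lay above all E15.5 arrays. Nr1h3 rose by 2.31 ± 0.21 at P5 (4.96-fold, adjusted p = 5.74e-05) and by 2.83 ± 0.21 at P10 (7.13-fold, adjusted p = 1.23e-05). The summed level of the macrophage markers was 9.53 to 9.64 at E15.5, 9.45 to 9.69 at P5 and 9.41 to 9.53 at P10. Of these 16 markers 9 were dim at all stages, and the part of macrophages in the Nr1h3 differences was not tested.

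Nr1h4, the bile acid receptor FXR, differed in pattern from these 5. Its signals were 10.44, 9.94 and 10.51 at E15.5, 10.30, 10.27 and 10.69 at P5 and 10.74, 10.69 and 10.64 at P10, so it was already bright in the fetal cells. The difference of 0.13 ± 0.16 at P5 did not pass (adjusted p = 0.612), nor did that of 0.40 ± 0.16 at P10 (adjusted p = 0.0964), though the P10 arrays lay above the E15.5 arrays. The P10 difference of Nr1h4 passed when arrays were centred on the median of all genes (0.49, adjusted p = 0.0440) or of ribosomal protein genes (0.48, adjusted p = 0.0479). After a second quantile normalisation, on top of that in the deposited values, it was 0.02 (adjusted p = 0.930). Over all settings the adjusted p ran from 0.0440 to 0.930.

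**Figure D3:**
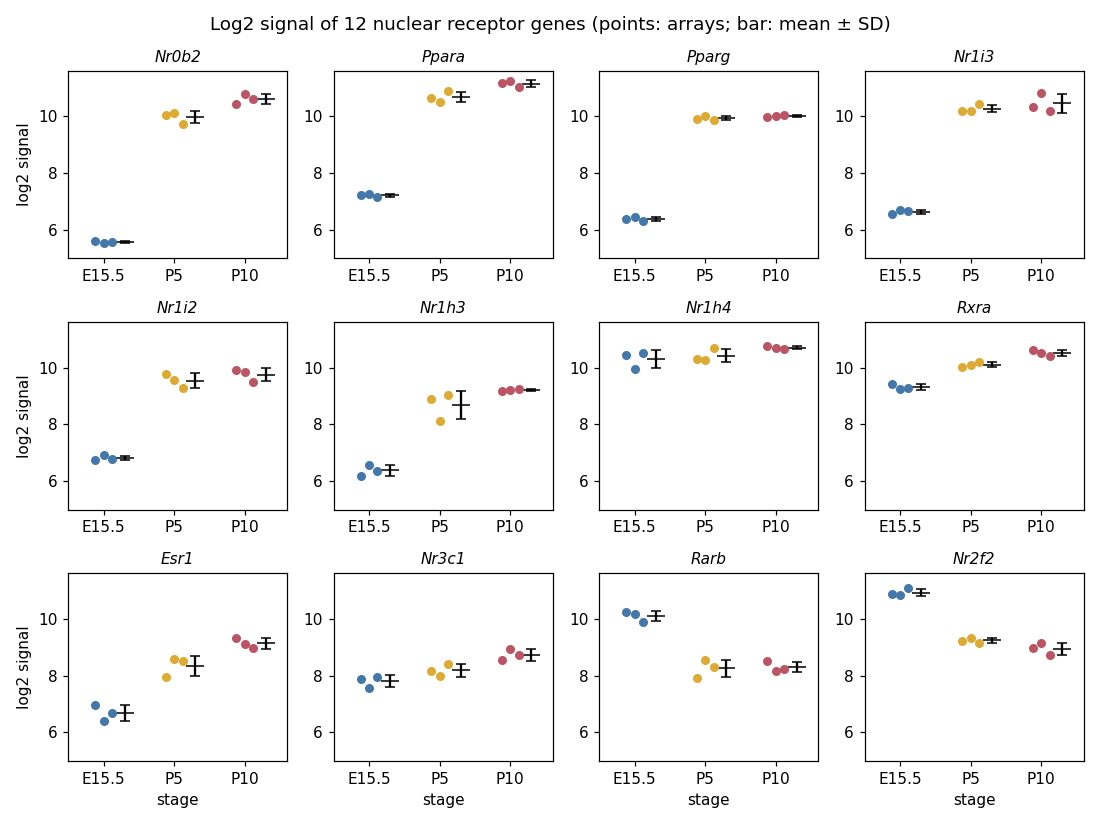
Log2 signal (vertical axis) by stage (horizontal axis) for 12 receptor genes, with a point per array and the mean ± SD of 3 arrays as a bar beside them. Nr0b2 had the widest gap between E15.5, at 5.55 to 5.60, and P10, at 10.43 to 10.78, while Nr1h4 stayed between 9.94 and 10.74 on all arrays.

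Nr0b2, whose product SHP lacks a DNA-binding domain and represses other receptors, had the largest difference of the 41 in both postnatal comparisons. Its signals were 5.60, 5.55 and 5.57 at E15.5, 10.06, 10.12 and 9.73 at P5 and 10.43, 10.78 and 10.60 at P10. The 3 stages did not overlap, and the probe set was dim at E15.5. Nr0b2 rose by 4.40 ± 0.12 at P5 (21.1-fold, adjusted p = 7.99e-08) and by 5.03 ± 0.12 at P10 (32.7-fold, adjusted p = 2.57e-08). SHP is known as a target of FXR (Nr1h4) and of LRH-1 (Nr5a2). Nr5a2 rose and Nr1h4 did not pass, and whether either acted on Nr0b2 in these cells was not tested. The other receptor without a DNA-binding domain, Nr0b1 (DAX1, of adrenal and gonad), was dim at all stages, with means of 5.29 ± 0.372, 4.81 ± 0.0576 and 4.80 ± 0.108. Its difference at P10 was -0.48 ± 0.16 and passed by little (adjusted p = 0.0466), and the call was kept in 5 of 20 other settings. Leaving out any single array except E15.5 array 3 ended it (adjusted p = 0.0618 to 0.148).

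The promoter of Nr0b2 is shown because this gene had the largest rise among the receptors measured. The window runs from 250 bases before to 50 bases after the RefSeq start, at chr4:133553126-133553425 on the plus strand of GRCm38.p6, and capitals mark TCAAGG, the first letters of the NR5A extended half-site.
Nr0b2: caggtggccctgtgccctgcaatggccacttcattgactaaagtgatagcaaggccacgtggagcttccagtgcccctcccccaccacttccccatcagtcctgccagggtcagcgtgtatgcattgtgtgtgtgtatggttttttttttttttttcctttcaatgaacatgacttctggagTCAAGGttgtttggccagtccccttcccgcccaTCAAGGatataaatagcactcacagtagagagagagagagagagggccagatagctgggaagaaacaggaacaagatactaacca
The letters TCAAGG begin 68 and 35 bases before the start. Searched on both strands, they occur in 14.4% of 32851 promoters of this length and in 8 of 57 promoters of 37 receptor genes matched in the RefSeq table, so a match is common and describes the sequence only. The TATA box letters TATAAA, present in 13.6% of the promoters, also occur in this window.

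Nr5a2, the orphan receptor LRH-1 of bile acid and steroid metabolism, had signals of 7.68, 7.77 and 7.54 at E15.5, 9.27, 9.78 and 9.80 at P5 and 10.61, 10.24 and 10.09 at P10. The 3 stages did not overlap. Nr5a2 rose by 1.95 ± 0.17 at P5 (3.88-fold, adjusted p = 4.53e-05) and by 2.65 ± 0.17 at P10 (6.29-fold, adjusted p = 5.30e-06). Among the 8 ROR, ERR, HNF4 and NR5A orphan receptors 3 rose and 0 fell in each comparison with E15.5. The shares of all genes were 17.9% higher and 17.7% lower at P5 and 20.1% higher and 18.6% lower at P10. Rora, an activator known for its role in the clock and in lipid metabolism, had 7.31, 7.36 and 7.40 at E15.5, 9.42, 9.21 and 9.70 at P5 and 9.60, 9.77 and 9.52 at P10. Its rise was 2.08 ± 0.12 at P5 (4.24-fold, adjusted p = 4.16e-06) and 2.27 ± 0.12 at P10 (4.84-fold, adjusted p = 1.71e-06).

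Esrrg, an oestrogen-related receptor of oxidative tissues, had 7.24, 7.20 and 7.56 at E15.5, 8.46, 7.79 and 8.25 at P5 and 9.19, 9.02 and 8.37 at P10. The postnatal arrays lay above the fetal ones, and P5 and P10 overlapped. It rose by 0.83 ± 0.24 at P5 (1.78-fold, adjusted p = 0.0262) and by 1.52 ± 0.24 at P10 (2.88-fold, adjusted p = 0.00102). The P5 call ended without E15.5 array 1 or 2 or P5 array 1 or 3 (adjusted p = 0.0693 to 0.0871). Esrra, the related receptor that works with PGC-1 coactivators, did not pass, with differences of 0.17 ± 0.098 at P5 and 0.21 ± 0.098 at P10 (adjusted p = 0.223 and 0.142). The P10 difference of Esrra passed when centred on all genes (0.30, adjusted p = 0.0404) or on ribosomal protein genes (0.29, adjusted p = 0.0495) and after quantile normalisation (0.30, adjusted p = 0.0440), in a range up to 0.390. Esrrb, Rorb and Nr5a1, known from pluripotent, neural and steroid-producing cells, did not pass either. At P10, Esrrb passed in 1 of 20 other settings (adjusted p = 0.0143 to 0.577 over all of them). Nr5a1 passed at P10 in 2 of 21 (adjusted p = 0.0336 to 0.592). Hnf4g, a relative of the main hepatocyte HNF4 factor, did not pass at P5, where it read 5.50, 5.88 and 7.01 on arrays 1, 2 and 3, so that 1 array stood apart. Its P5 difference of 0.73 ± 0.34 (adjusted p = 0.136) was 0.29 without array 3 (adjusted p = 0.235) and 1.05 without array 1, when it passed (adjusted p = 0.0356). At P10 the difference of Hnf4g was 0.56 ± 0.34 (adjusted p = 0.248), and it passed in 3 of 21 other settings, each without P5 array 3 (adjusted p = 0.0199 to 0.0228). Over all settings its adjusted p reached 0.770 at P5 and 0.577 at P10.

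Among thyroid hormone receptors the 2 genes moved in opposite directions. Thrb, the main form in adult hepatocytes, had signals of 6.10, 6.20 and 6.02 at E15.5, 8.07, 7.90 and 8.38 at P5 and 8.26, 8.46 and 8.37 at P10. It rose by 2.01 ± 0.12 at P5 (4.04-fold, adjusted p = 4.77e-06) and by 2.26 ± 0.12 at P10 (4.79-fold, adjusted p = 1.68e-06). Thra, the more widely expressed form, had 9.69, 9.36 and 9.60 at E15.5, 8.23, 8.36 and 8.41 at P5 and 8.52, 8.52 and 7.92 at P10. It fell, with differences of -1.22 ± 0.17 at P5 (2.33-fold lower, adjusted p = 0.000557) and -1.23 ± 0.17 at P10 (2.34-fold lower, adjusted p = 0.000424), and none of its postnatal arrays reached the fetal ones. The vitamin D receptor gene Vdr, dim at E15.5, did not pass (0.17 ± 0.075 at P5 and 0.19 ± 0.075 at P10, adjusted p = 0.118 and 0.0854). Without P5 array 3 Vdr passed at P5 (adjusted p = 0.0339) and at P10 (adjusted p = 0.0474), and at P10 it also passed centred on all genes (0.28, adjusted p = 0.0109) and after quantile normalisation (adjusted p = 0.0206). Over all settings its adjusted p reached 0.301 at P5 and 0.240 at P10.

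Of the retinoic acid receptors, Rarb and Rarg fell and Rara did not pass. Rarb, itself a classical target of retinoic acid, had signals of 10.23, 10.18 and 9.90 at E15.5, 7.93, 8.53 and 8.30 at P5 and 8.50, 8.17 and 8.24 at P10. The fetal arrays lay wholly above the postnatal ones, which overlapped with each other. The differences were -1.85 ± 0.17 at P5 (3.60-fold lower, adjusted p = 4.90e-05) and -1.80 ± 0.17 at P10 (3.49-fold lower, adjusted p = 4.00e-05). Rarg, known from skin and cartilage, fell as well, with differences of -0.36 ± 0.078 at P5 (adjusted p = 0.00707) and of -0.48 ± 0.078 at P10 (adjusted p = 0.00122). The P5 call of Rarg ended after centring on ribosomal protein genes (-0.28, adjusted p = 0.0718) and without P5 arrays 2 and 3 (-0.34, adjusted p = 0.0839). Rara, the most widely expressed of the 3, differed by -0.38 ± 0.20 at P5 and 0.05 ± 0.20 at P10 (adjusted p = 0.184 and 0.891). Without P5 array 2, on which it read 8.96 beside 8.42 and 8.23, its P5 difference was -0.59 and passed (adjusted p = 0.0243, in a range from 0.0243 to 0.428 over all settings).

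The promoter of Rarb is shown because it holds a copy of the element through which retinoic acid receptors are known to act on this gene. The RefSeq window lies at chr14:16575427-16575726 on the minus strand of GRCm38.p6, and capitals mark the direct repeat of GGTTCA and AGTTCA with any 5 bases between them.
Rarb: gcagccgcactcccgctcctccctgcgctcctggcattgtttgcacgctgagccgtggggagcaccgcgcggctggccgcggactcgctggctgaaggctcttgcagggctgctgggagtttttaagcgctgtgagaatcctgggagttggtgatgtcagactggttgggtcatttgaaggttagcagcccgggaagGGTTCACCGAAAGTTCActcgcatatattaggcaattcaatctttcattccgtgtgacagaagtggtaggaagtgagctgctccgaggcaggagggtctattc
The element begins 53 bases before the start. Searched on both strands, this spelling occurs in 2 of 32851 promoters (0.00609%), and Rarb holds the copy found among the 57 receptor promoters. The letters searched are the repeats as spelled in the Rarb element itself. The match in Rarb thus followed from the choice of letters, and its rarity gives no test. The single half-site AGGTCA occurs in 16.3% of all promoters and in 11 of the 57.

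Genes of the retinoic acid pathway were mixed. Of 17 measured genes for its handling and targets, 2 rose and 6 fell at P5 and as many at P10, with medians of 0.05 and 0.03. Among all genes 17.9% rose and 17.7% fell at P5, and 20.1% rose and 18.6% fell at P10. Lrat, whose enzyme makes the retinyl esters that stellate cells store, differed by -2.95 ± 0.21 at P10 against E15.5, and Crabp1, a retinoic acid binding protein, by -2.74 ± 0.31. Lrat also belongs to the stellate marker list. In the other direction, the retinaldehyde dehydrogenase gene Aldh1a1 rose by 2.38 ± 0.25 and the transglutaminase gene Tgm2 by 1.86 ± 0.13.

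Of the RXR genes, the shared dimer partners, Rxra is the main form in liver. It had signals of 9.44, 9.23 and 9.29 at E15.5, 10.03, 10.09 and 10.19 at P5 and 10.60, 10.53 and 10.41 at P10, and the 3 stages did not overlap. Rxra rose by 0.79 ± 0.080 at P5 (1.72-fold, adjusted p = 0.000100) and by 1.20 ± 0.080 at P10 (2.29-fold, adjusted p = 5.99e-06). Rxrg, known mainly from muscle and brain and dim at E15.5, had 5.33, 5.46 and 5.27 at E15.5, 5.98, 6.50 and 5.98 at P5 and 6.59, 6.47 and 6.14 at P10. It rose by 0.80 ± 0.16 at P5 (adjusted p = 0.00528) and by 1.05 ± 0.16 at P10 (adjusted p = 0.000992). Rxrb, the broadly expressed form, had means of 7.08 ± 0.166, 7.35 ± 0.0704 and 7.30 ± 0.0601. It passed by little at P5 (0.27 ± 0.089, adjusted p = 0.0476) and not at P10 (0.21 ± 0.089, adjusted p = 0.0985). The P5 call of Rxrb was kept in 6 of 21 other settings and ended on leaving out any single array except E15.5 array 2 (adjusted p = 0.0525 to 0.124). Without E15.5 array 3 the difference was 0.18. At P10 Rxrb passed centred on all genes (0.31, adjusted p = 0.0215), after quantile normalisation (0.29, adjusted p = 0.0325) and without E15.5 array 2 (0.29, adjusted p = 0.0358), in a range up to 0.274.

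**Figure D4:**
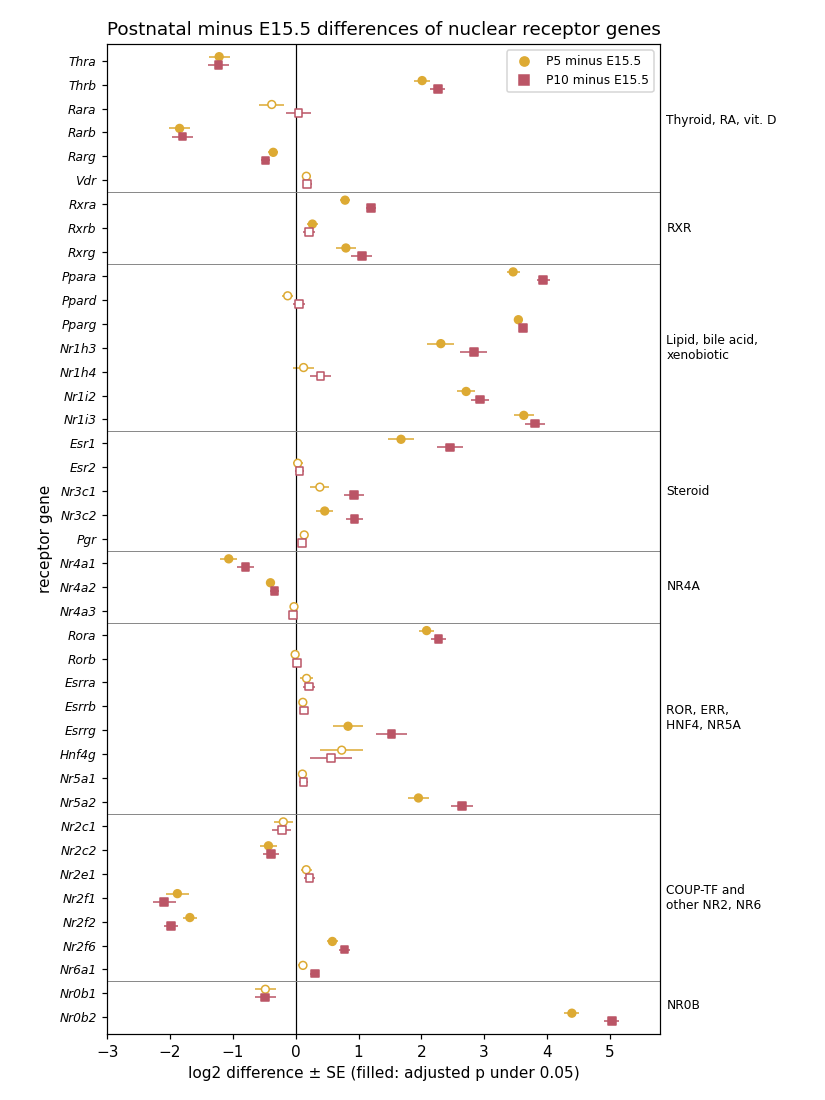
Log2 differences of 41 receptor genes (rows, by class) between P5 and E15.5 (circles) and between P10 and E15.5 (squares), with standard errors. Filled symbols have an adjusted p under 0.05. Nr0b2, Ppara, Nr1i3 and Pparg lie farthest right and Nr2f1, Nr2f2 and Rarb farthest left.

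In the steroid hormone class, 2 of 5 receptors rose at P5 and 3 at P10, and 0 fell. The shares of all genes were 17.9% higher and 17.7% lower at P5 and 20.1% higher and 18.6% lower at P10. Esr1, the oestrogen receptor alpha gene, had signals of 6.95, 6.39 and 6.69 at E15.5, 7.95, 8.59 and 8.53 at P5 and 9.34, 9.11 and 8.97 at P10. The 3 stages did not overlap. Esr1 rose by 1.68 ± 0.20 at P5 (3.20-fold, adjusted p = 0.000259) and by 2.46 ± 0.20 at P10 (5.50-fold, adjusted p = 1.97e-05). Nr3c1, the glucocorticoid receptor gene, had 7.90, 7.58 and 7.95 at E15.5, 8.18, 7.97 and 8.42 at P5 and 8.54, 8.95 and 8.72 at P10. Its difference of 0.38 ± 0.15 at P5 did not pass (adjusted p = 0.0890), and it rose by 0.93 ± 0.15 at P10 (1.90-fold, adjusted p = 0.00134). Without P5 array 2 the P5 difference of Nr3c1 was 0.49 and passed (adjusted p = 0.0499), as it did after quantile normalisation (adjusted p = 0.0394) and after centring on ribosomal protein genes (adjusted p = 0.0332), in a range from 0.0332 to 0.255 over all settings.

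Nr3c2, the mineralocorticoid receptor gene, was dim at E15.5, with means of 5.54 ± 0.104, 6.00 ± 0.101 and 6.47 ± 0.270. It rose by 0.46 ± 0.13 at P5 (adjusted p = 0.0246) and by 0.94 ± 0.13 at P10 (1.91-fold, adjusted p = 0.000507). The P5 call of Nr3c2 was kept in 13 of 21 other settings. It ended without E15.5 array 1 or 2 or P5 array 2 or 3 (adjusted p = 0.0562 to 0.0766). Esr2 and Pgr, the genes of oestrogen receptor beta and of the progesterone receptor, did not pass, and Pgr was dim at all stages. Pgr passed at P5 in 2 of 20 other settings (adjusted p = 0.0445 to 0.822 over all of them). At P10 it passed in 1 of 20 (adjusted p = 0.0222 to 0.577).

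The COUP-TF genes fell. Nr2f2, COUP-TFII of mesenchyme and venous endothelium, had signals of 10.87, 10.84 and 11.07 at E15.5, 9.23, 9.33 and 9.17 at P5 and 8.98, 9.14 and 8.72 at P10. Its differences were -1.69 ± 0.11 at P5 (3.22-fold lower, adjusted p = 9.56e-06) and -1.98 ± 0.11 at P10 (3.95-fold lower, adjusted p = 2.55e-06). P5 arrays 2 and 3, which stood apart in endothelial markers, read 9.33 and 9.17 in Nr2f2, beside 9.23 on P5 array 1. The part of endothelial cells in the Nr2f2 differences was not tested. Nr2f1, COUP-TFI of neural and mesenchymal development, had 8.29, 7.75 and 7.59 at E15.5, 6.20, 5.87 and 5.91 at P5 and 5.76, 5.93 and 5.66 at P10. It fell too, with differences of -1.88 ± 0.18 at P5 (3.69-fold lower, adjusted p = 6.99e-05) and -2.09 ± 0.18 at P10 (4.27-fold lower, adjusted p = 2.68e-05).

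Nr2f6, a more distant COUP-TF relative, ran the other way and rose by 0.58 ± 0.092 at P5 (adjusted p = 0.00120) and 0.78 ± 0.092 at P10 (adjusted p = 0.000180). Nr6a1, the germ cell nuclear factor gene, rose at P10 by 0.30 ± 0.072 (adjusted p = 0.00938) and did not pass at P5 (0.12 ± 0.072, adjusted p = 0.263). The testicular receptor 4 gene Nr2c2 fell, with differences of -0.43 ± 0.13 at P5 and -0.39 ± 0.13 at P10 (adjusted p = 0.0326 and 0.0449). Its calls were weak: that at P5 ended without E15.5 array 1 or any 1 P5 array (adjusted p = 0.0505 to 0.0853), and that at P10 without any single array except E15.5 array 2 (adjusted p = 0.0604 to 0.140). Without E15.5 array 3 the difference of Nr2c2 was -0.27 at P5 and -0.23 at P10. Nr2c1 and Nr2e1 did not pass, though Nr2e1 at P10 passed in 4 of 21 other settings (adjusted p = 0.0140 to 0.272 over all of them). At P5 Nr2e1 passed in 1 of 21 (adjusted p = 0.0373 to 0.511).

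The NR4A receptors are immediate early genes that need no ligand, and 2 of 3 fell in each comparison with E15.5. The share of all genes that fell was 17.7% at P5 and 18.6% at P10. Nr4a1 (Nur77) had signals of 8.05, 8.16 and 8.47 at E15.5, 7.08, 7.40 and 7.003 at P5 and 7.51, 7.34 and 7.43 at P10. Its differences were -1.07 ± 0.13 at P5 (2.09-fold lower, adjusted p = 0.000326) and -0.80 ± 0.13 at P10 (1.74-fold lower, adjusted p = 0.00138). Nr4a2 (Nurr1) differed by -0.40 ± 0.069 at P5 and -0.34 ± 0.069 at P10 (adjusted p = 0.00193 and 0.00431). At P10 it missed the threshold after centring on ribosomal protein genes (adjusted p = 0.0532, the highest of all settings). Nr4a3 was dim at all stages and did not pass.

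Other immediate early genes are known to respond to tissue dissociation too. Of 20 such genes 2 rose and 8 fell at P5, and 1 rose and 11 fell at P10, with medians of -0.21 and -0.51. Of all genes 17.9% rose and 17.7% fell at P5, and 20.1% rose and 18.6% fell at P10. Fos differed by -2.47 ± 0.34, Klf6 by -2.06 ± 0.17 and Egr2 by -1.90 ± 0.14 at P10 against E15.5, while Jund rose by 0.33 ± 0.080. The part of tissue handling in the NR4A differences was not tested.

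Between P10 and P5 the receptors that rose were Rxra, Ppara and Nr0b2. Nr0b2 was higher at P10 by 0.63 ± 0.12 (1.55-fold, adjusted p = 0.0215), Rxra by 0.41 ± 0.080 (1.33-fold, adjusted p = 0.0248) and Ppara by 0.48 ± 0.10 (1.40-fold, adjusted p = 0.0342). In each the 3 P10 arrays lay above the 3 P5 arrays, as was the case in either direction for 10 of the 41 receptors and for 20.2% of all genes. All 3 calls depended on single arrays. That of Nr0b2 ended without P10 array 2 or 3 (adjusted p = 0.0738 and 0.0638), that of Rxra without P10 array 1 or 2 or P5 array 1 or 2 (0.0711 to 0.0858), and that of Ppara without arrays 1 or 2 of any stage (0.0560 to 0.121). Nr5a2 (0.70 ± 0.17, adjusted p = 0.0592) and Esr1 (0.78 ± 0.20, adjusted p = 0.0662) did not pass, although their 2 stages did not overlap. Both passed when arrays were centred on all genes, when dim genes were left out and with the Y-linked Eif2s3y signal as a covariate, with adjusted p over all settings of 0.0273 to 0.141 for Nr5a2 and 0.0311 to 0.176 for Esr1.

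Known target genes of the sensors were read from lists, and several of these genes are also hepatocyte genes. The counts of these lists and of those in the paragraphs below stand beside shares of all genes. At P5 against E15.5 these shares were 17.9% higher and 17.7% lower, and at P10 20.1% higher and 18.6% lower. Of 20 PPARalpha targets 17 rose and 1 fell at P5 and 16 rose and 1 fell at P10, with medians of 1.82 and 1.89. The fatty acid hydroxylase gene Cyp4a14 rose by 5.70 ± 0.17 at P10 against E15.5, the peroxisomal gene Ehhadh by 4.33 ± 0.19 and the thiolase gene Acaa1b by 3.74 ± 0.14, while the thioesterase gene Acot1 fell (-1.14 ± 0.12). Between P10 and P5, 2.76% of all genes rose and 2.89% fell. Of 12 PPARgamma targets 1 rose and 1 fell, and of 12 LXR targets 2 rose and 1 fell. Of 14 CAR and PXR targets 5 rose and 0 fell, and of 11 genes of the FXR list 0 rose and 3 fell. Of the 20 PPARalpha targets 1 rose and 3 fell. Acaa1b rose by 0.62 ± 0.14 (adjusted p = 0.0469), and Cyp4a14 (-0.94 ± 0.17, adjusted p = 0.0164), the related Cyp4a10 (-1.13 ± 0.12, adjusted p = 0.00199), which was named for this count, and Acot1 (-0.49 ± 0.12, adjusted p = 0.0474) fell. Of 12 PPARgamma targets 5 rose at P5 and 3 at P10 and 0 fell, with medians of 0.21 and 0.11. The members that rose at P10 were Pck1 (6.62 ± 0.14), a gluconeogenic gene of hepatocytes that also stands in the hepatocyte and glucocorticoid lists, the fatty acid binding protein gene Fabp4 (1.57 ± 0.22) and the lipid droplet gene Cidec (0.86 ± 0.12).

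Of the CAR and PXR targets 9 of 14 rose at P5 and 12 of 14 at P10, with 0 lower and medians of 1.43 and 2.62. Cyp2b9, a cytochrome P450 gene, rose by 6.36 ± 0.080 at P10 and the sulfotransferase gene Sult1d1 by 5.36 ± 0.069. Cyp2c29 was late, with a difference of 0.50 ± 0.22 at P5 against E15.5 that did not pass (adjusted p = 0.114) and a rise of 4.44 ± 0.22 at P10 against P5 (adjusted p = 0.000128). Of 11 genes of the FXR list 9 rose at P5 and 8 at P10, with 0 lower and medians of 2.06 and 2.57. They included the plasma protein gene Fetub (5.74 ± 0.11 at P10), the sulfotransferase gene Sult2a8 (5.40 ± 0.16) and Cyp7a1 (3.999 ± 0.50), the rate-limiting enzyme of bile acid synthesis, which FXR and SHP are known to repress.

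LXR targets split. Of 12 genes 4 rose and 5 fell at P5, and 5 rose and 5 fell at P10, with medians of -0.21 and -0.00. The sterol exporter genes Abcg5 (3.89 ± 0.080) and Abcg8 (3.14 ± 0.10) and the phosphodiesterase gene Smpdl3a (1.33 ± 0.15) rose at P10 against E15.5. The phospholipid transfer protein gene Pltp (-1.32 ± 0.26) and the phospholipid remodelling gene Lpcat3 (-1.07 ± 0.19) fell.

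**Figure D5:**
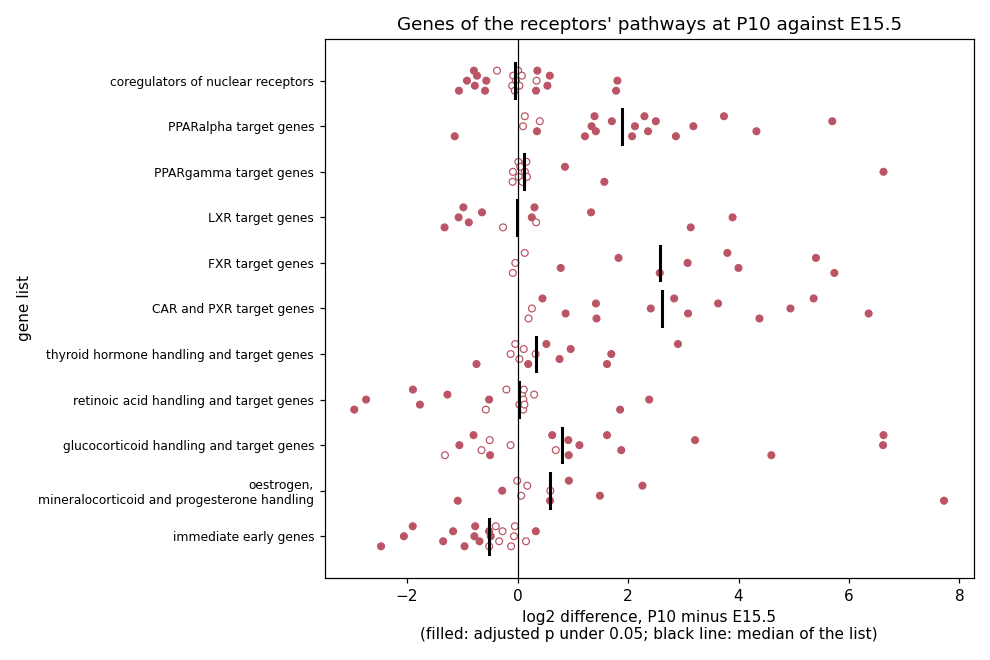
Log2 difference at P10 against E15.5 (horizontal axis) of each measured gene in 11 lists of receptor pathway genes (rows), with filled points for an adjusted p under 0.05 and a black line for the median. The lines of the PPARalpha, FXR and CAR and PXR lists stand at 1.89, 2.57 and 2.62, that of the LXR list at -0.00 and that of the immediate early list at -0.51.

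Lists of hormone handling genes were read in the same way. Of 13 thyroid hormone genes 5 rose and 1 fell at P5 and 7 rose and 1 fell at P10, with medians of 0.20 and 0.33. Dio1, which activates thyroid hormone in liver, rose by 2.90 ± 0.15 at P10 against E15.5, the coactivator gene Bcl3 by 1.70 ± 0.20 and the thyroid hormone target Klf9 by 1.62 ± 0.18, while the hydroxylase gene Cyp7b1 fell (-0.74 ± 0.099). Of 18 glucocorticoid genes 8 rose and 4 fell at P5 and 10 rose and 3 fell at P10, with medians of 0.45 and 0.81. Tat (6.62 ± 0.12) and G6pc (4.59 ± 0.25), enzymes of amino acid and glucose metabolism in hepatocytes, rose at P10. Both also stand in the hepatocyte marker list. Hsd11b2, which inactivates glucocorticoids, fell (-1.05 ± 0.10), as did Zfp36 (-0.80 ± 0.13).

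Of 11 genes for oestrogen, mineralocorticoid and progesterone handling 5 rose and 1 fell at P5, and 5 rose and 2 fell at P10, with medians of 0.17 and 0.59. The steroid dehydrogenase genes Akr1c6 (7.72 ± 0.058) and Hsd17b4 (2.26 ± 0.12) and the sodium channel gene Scnn1a (1.49 ± 0.11) rose at P10 against E15.5, and the progesterone binding protein gene Pgrmc2 (-1.08 ± 0.058) and the oestrogen-binding membrane receptor gene Gper1 (-0.28 ± 0.072) fell.

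Coregulators, the proteins that receptors recruit to switch genes on or off, were mixed. Of 22 genes 3 rose and 8 fell at P5, and 6 rose and 7 fell at P10, with medians of -0.17 and -0.04. Ppargc1a, the PGC-1alpha coactivator of PPARalpha and the ERR receptors, rose by 1.81 ± 0.23 at P10 against E15.5, and Lpin1, a coactivator of PPARalpha and a lipid phosphatase, by 1.78 ± 0.34. Ppargc1b (0.58 ± 0.090) and Ncoa1 (0.54 ± 0.18), which encodes SRC-1, rose as well. So did Lcor (0.36 ± 0.10) and Trim24 (0.33 ± 0.079). Ncoa7 fell (-1.06 ± 0.17), as did Pprc1 (-0.92 ± 0.18), Prmt1 (-0.79 ± 0.14) and Nsd1 (-0.77 ± 0.11). Ep300 (-0.73 ± 0.12), Carm1 (-0.59 ± 0.13) and Crebbp (-0.57 ± 0.12) fell too.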

How the data were processed

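Per the labels' protocols, Trizol served to extract total RNA, from which biotinylated cRNA was made. The deposited values are log2 signals per probe set from RMA, run by the authors per the submitters' processing notes. Those notes list Transcriptome Analysis Console 2.0 and Affymetrix Expression Console too. Quantile normalisation and probe summary are steps of RMA, which compresses differences of dim and very bright probe sets. The setting named quantile normalisation was therefore a second pass, made on the chosen probe set of each gene. No genome build is stated for the probe set names.

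Of 35556 probe sets 21789 carried 1 gene symbol, updated by Entrez identifier for 21698, and the one with the highest mean over 9 arrays represented each of 19938 genes. Stage was the only term of the model, fitted to all arrays in limma 3.58.1 (R 4.3.3), with 2-sided moderated tests and Benjamini-Hochberg adjustment across the whole table. The code was tested on simulated data. Array number limits the precision. Same-numbered arrays of different stages did not deviate together (r of residuals -0.079 to 0.069, 0 of 9 pairs over 0.1), and no pairing was used. Receptors and gene lists were chosen with earlier results of these data known.

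The rule gave values by array for receptors called with a difference of at least 1, or with the highest mean of their class, and stage means, ranges or differences for the others. Of each pathway list it named the 3 called genes with the largest difference at P10 against E15.5 and up to 2 called the other way. The other way was the direction of fewer called genes in the list, or lower in a tie. All called coregulators were named. The 8 marker lists were used for levels and for counts of called or dim genes. Promoters came from RefSeq (GRCm38.p6). Python 3.11.15 with matplotlib 3.10.9 drew the figures.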

Additional observations from a re-analysis of the deposited data

How the results depend on the processing

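The fit was repeated under 21 other settings: quantile normalisation, centring on the median of all genes or of 59 ribosomal protein genes, a filter or a floor at percentile 30, the mean of all probe sets, only the arrays of both stages compared, another variance model, array weights, the Eif2s3y signal as covariate, the replicate number as a block, P5 arrays 2 and 3 left out, and each array left out in turn. No called receptor difference changed sign in any of them. At P5 against E15.5 receptor counts were 13 to 15 higher and 7 to 9 lower when 1 array was left out, and at P10 against E15.5 17 to 19 and 7 to 8. Scaling moved the P10 counts further. Against 17 higher and 9 lower as reported, they were 25 and 7 centred on all genes, 22 and 9 after quantile normalisation and 20 and 6 centred on ribosomal protein genes. With 1 array left out, counts over all genes were 6194 to 7174 at P5 and 6754 to 7895 at P10 against E15.5. In the F test 6633 to 8191 genes and 23 to 25 receptors passed with 1 array left out. P10 against P5 was the least stable comparison. Its 1126 calls over all genes became 586 to 1385 with 1 array left out and 709 with only the P5 and P10 arrays, and its 3 higher receptors became 0 to 4 with 1 array left out. They became 5 after centring on all genes and 5 after leaving out dim genes, 1 with only the P5 and P10 arrays and 0 without P5 arrays 2 and 3, where P5 array 1 stands alone and its spread is taken from E15.5 and P10. The last of these and the fit to P5 and P10 alone rest on fewer arrays, and the cause of the others was not tested. Centred on all genes, 65.6% of calls at P10 against E15.5 were higher (51.8% as reported), and 63.5% at P10 against P5 (48.8% as reported). With the replicate block, a pairing the data did not bear out, 6886 genes, with 15 receptors higher and 7 lower, were called at P5 against E15.5. At P10 against E15.5 the block gave 7440 genes, 17 receptors higher and 7 lower, and between P10 and P5 893 genes, 2 receptors higher and 0 lower. The block left Rxra (adjusted p = 0.0573) and Ppara (0.0851) short of the threshold between P10 and P5, and Nr3c2 past it (0.0369). It also left short Nr2c2 at P5 (0.0577) and P10 (0.0745), Rxrb at P5 (0.0814) and Nr0b1 at P10 (0.0555).

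Without P5 arrays 2 and 3, 14 receptors were higher and 6 lower at P5 against E15.5, and with the Eif2s3y covariate, a Y-linked signal that differed between arrays, 14 and 8. A floor at percentile 30 left Rxrg at P5 short of the threshold (adjusted p = 0.0669), since its E15.5 signals lay below the floor. The same floor left short Nr3c2 at P5 (0.31, adjusted p = 0.104), which was also dim at E15.5. It ended the P10 calls of Nr0b1 (-0.03, adjusted p = 0.577), dim at all stages, and of Nr2c2 (adjusted p = 0.0525).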

Other observations

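The receptor promoters differed in their number of CG pairs, a feature that the choice of genes did not use. Over 32851 RefSeq windows of 300 bases the median was 7 CG pairs, with quartiles of 3 and 20. Among receptor genes with a single window in the table, few CG pairs stood in the windows of Nr1i2 (2), Nr0b2 (3) and Nr1i3 (3), which rose after birth, and of Nr2f2 (2), which fell. Many stood in those of Rora (28), Ppara (30) and Nr2f6 (53), which rose, and of Nr4a1 (35) and Nr4a2 (52), which fell. Low and high counts thus occurred in both directions. These windows were picked after their counts were seen and give no test.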
